A study of Homo sapiens with 6 samples.

Results

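The genes described here make, regulate and move cholesterol. They are 30 genes chosen by name: 8 of early synthesis, which runs from acetyl-CoA to farnesyl and geranylgeranyl diphosphate, 11 of late synthesis, which turns farnesyl diphosphate into cholesterol, 5 that encode the SREBP transcription factors and the proteins that hold or escort them, and 6 of sterol uptake, storage and efflux. Of the 30 genes, 27 were measured by a probe set that the platform annotation gives to 1 gene, out of 18132 genes measured in the series. FDFT1, CYP51A1 and NR1H2 were not analysed here. The series compared 3 arrays of total RNA from cells labelled HCT116 and CSF3 with 3 arrays from cells labelled HCT116 and control (Ctrl), all grown in RPMI-1640 medium with fetal bovine serum and penicillin-streptomycin. HCT116 is a human colorectal carcinoma cell line, and the product of CSF3 is the growth factor G-CSF, known for driving the production of neutrophils. How CSF3 reached the cells (as protein or from a vector), for how long, and in how many clones is not in the labels, and neither is whether the replicates of a group are separate cultures. A p-value here therefore covers the spread among 3 arrays a group, which can be technical alone. Serum contains lipoproteins, so the cells of both groups could take up cholesterol as well as make it.

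Cells adjust cholesterol synthesis to their sterol content through the SREBP proteins, which are made as precursors in the membrane of the endoplasmic reticulum. When sterols are scarce, SCAP escorts the precursor to the Golgi, where proteases free the part that enters the nucleus and switches on the genes of synthesis and uptake; when sterols are plentiful, the INSIG proteins hold SCAP back. Oxidised sterols act in the opposite sense through the LXR receptors, which switch on the exporters ABCA1 and ABCG1 and the ubiquitin ligase MYLIP, which marks lipoprotein receptors for destruction.

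The arrays differed between the groups in ways that touch every gene below. Values are log2 signals as deposited, and a change is the CSF3 mean minus the Ctrl mean. Signal level and change went together: the median change was 0.31 among the dimmer genes and -0.13 among the brighter ones (split at the median signal of all genes), and 24 of the 27 cholesterol genes lay in the brighter part. The 3' probe set of GAPDH exceeded its 5' probe set, a measure of RNA and labelling quality, by 0.68 on every CSF3 array, against 0.30 to 0.31 on the Ctrl arrays, and the median of 18 hybridisation controls was 8.30 to 8.39 on the CSF3 arrays, against 6.74 to 6.87 on the Ctrl arrays. The part of these differences in the results below was not tested. The array codes in the labels share 1 prefix within each group and differ between the groups, so anything the prefix stands for cannot be told apart from CSF3. CSF3 itself read 5.96 ± 0.04 on the CSF3 arrays and 4.83 ± 0.30 on the Ctrl arrays (SD, n = 3 each), in the direction of the labels.

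The labelled cell type was checked against epithelial markers, and most were dim on the arrays of both groups. EPCAM, an epithelial adhesion molecule, averaged 3.46 over the 6 arrays, CDH1, which encodes E-cadherin, 2.22, KRT19 2.84, and the intestinal genes VIL1 and LGALS4 1.56 and 2.32, where the median of all genes was 4.46 and the lower quartile 2.73. The keratin genes KRT8 and KRT18 averaged 5.72 and 7.37. VIM and ZEB1, which mesenchymal cells express, averaged 7.92 and 8.31 (named here with their values known). Some of these markers differed between the groups by as much as the cholesterol genes: KRT8 averaged 5.06 on the CSF3 arrays and 6.37 on the Ctrl arrays (-1.32 ± 0.09), VIM 7.47 on the CSF3 arrays and 8.38 on the Ctrl arrays (-0.91 ± 0.05), and ZEB1 7.73 on the CSF3 arrays and 8.90 on the Ctrl arrays (-1.17 ± 0.05). Others went the other way, with KRT18 (0.22 ± 0.05) and KRT19 (0.47 ± 0.12) called higher. Of the 7 epithelial markers 2 rose, 2 fell and 3 were not called, where 45.4% of all genes rose and 27.1% fell. After quantile normalization 1 of the 7 was called higher and 3 lower. The part of these markers in the results was not tested. Brightness also depends on the probe, and no array has detection calls. Of the 7 measured markers of immune, stromal and endothelial cells 5 (71.4%) rose and 2 did not pass the test, where 45.4% of all genes rose. Their median signal was 3.61 to 3.96 on the CSF3 arrays, against 3.16 to 3.54 on the Ctrl arrays, so they were dim. Their median change was 0.48, and that of the dimmer genes as a whole was 0.31. What these markers contribute to the results was not tested. The epithelial profile that the name HCT116 implies was thus only in part present, and the cells are called by their label here.

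Of the 27 cholesterol genes, 11 were higher and 7 lower on the CSF3 arrays, and 9 were not called (limma, Benjamini-Hochberg adjusted p under 0.05 over all 18132 genes). These shares, 40.7% and 25.9%, lay close to those of all genes, of which 45.4% rose and 27.1% fell, so the total says nothing particular about cholesterol genes. With the 30% dimmest genes left out, 37.6% of the remaining genes rose and 38.5% fell. By role the counts were as follows. In early synthesis 5 of 8 rose (3 without moderated variances) and 0 fell in the limma test (0 also at an unadjusted p under 0.05, and 0 without moderated variances), with a median change of 0.22. In late synthesis 3 of 9 rose and 3 fell, with a median of -0.04. Of the 5 SREBP regulators 0 rose in the limma test (0 also at an unadjusted p under 0.05, and 0 without moderated variances) and 3 fell, with a median of -0.24, whereas after quantile normalization 2 of these 5 were called higher and 1 lower. With all probe sets averaged, SREBF1 was called higher (0.15). Of the 5 genes of uptake, storage and efflux 3 rose (1 without moderated variances) and 1 fell, with a median of 0.28. The median of all genes was 0.16, and the differences between these lists were not tested. For 19 of the 27 genes the arrays of the groups did not overlap, but the share of all genes without overlap was not counted. The 19 were the 18 called genes and SC5D, so a lack of overlap went with every call and adds little to it. A lack of overlap below thus describes a single gene and is not a trait of cholesterol genes.

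After quantile normalization, which forces the same distribution on all arrays, the picture moved upward: 14 of the 27 genes were called higher and 3 lower, while 39.8% of all genes were called higher and 19.7% lower. The list medians became 0.45 for early synthesis, 0.12 for late synthesis, 0.03 for the regulators and 0.16 for uptake, storage and efflux, with 0.13 for all genes. Of the 18 calls made as deposited, 12 were made in the same direction after quantile normalization, 9 of them rises (ACAT2, HMGCS1, MVK, MVD, IDI1, MSMO1, NSDHL, EBP and MYLIP) and 3 falls (SQLE, TM7SF2 and SCAP). How many calls were kept in this way among all genes was not counted. With all probe sets of a gene averaged, the calls as deposited were made again except that of SQLE. Among others, the changes were smaller for MVK (0.27), IDI1 (0.19), EBP (0.18), MSMO1 (0.29), MYLIP (0.82), TM7SF2 (-0.52) and SREBF2 (-0.31). Those of INSIG2 (-0.38) and ABCG1 (0.37), among others, were larger.

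**Figure D1:**
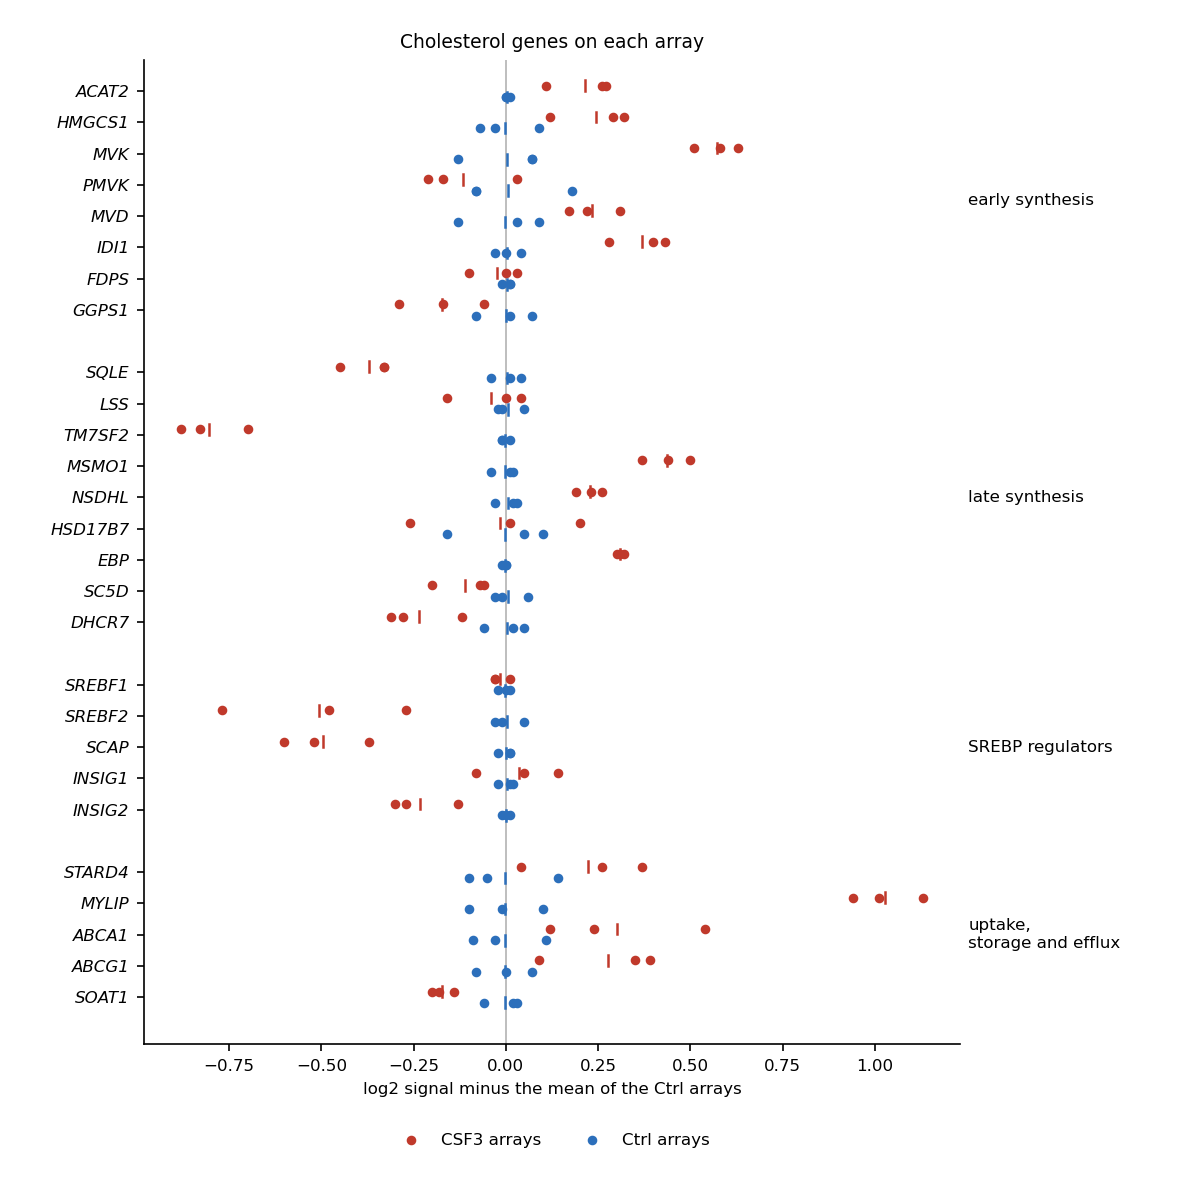
Log2 signal of each cholesterol gene on each array, minus the mean of the Ctrl arrays, with 3 CSF3 arrays (red) above 3 Ctrl arrays (blue) for each gene and a short line at each group's mean. MYLIP stands farthest to the right, TM7SF2 farthest to the left, and the arrays of MVK, IDI1, MSMO1 and EBP do not overlap between the groups.

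**Figure D2:**
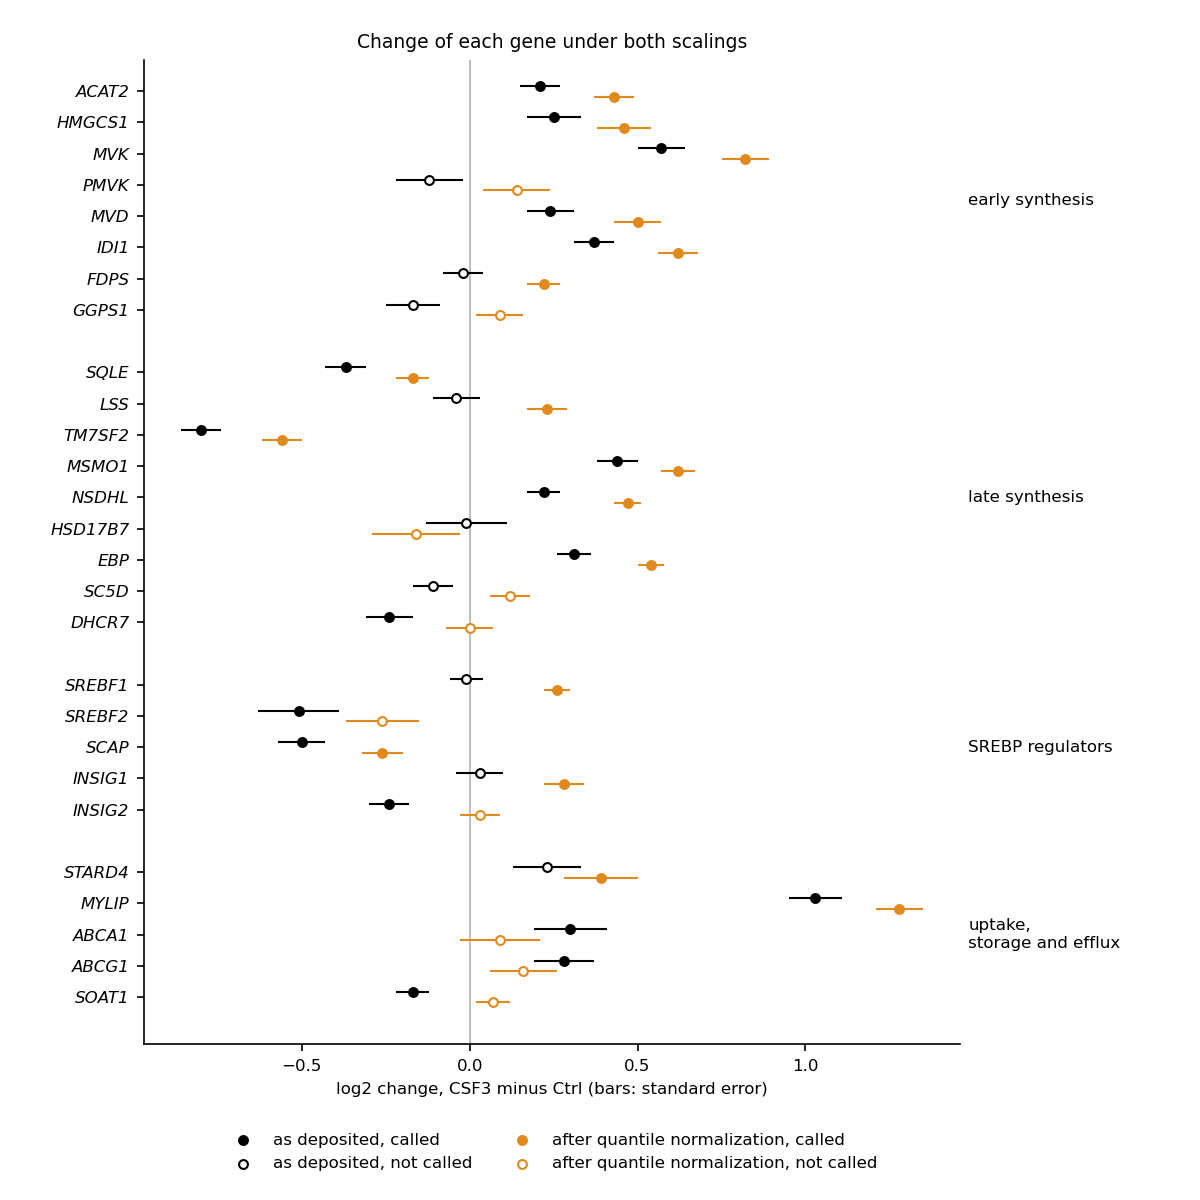
Log2 change of each cholesterol gene (CSF3 minus Ctrl, 3 arrays each) with its standard error, as deposited (black) and after quantile normalization (orange); filled points passed the limma test. The second scaling moves 24 of the 27 genes to the right, and HSD17B7, ABCA1 and ABCG1 to the left.

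The promoters of 4 genes are printed because they frame these results: MYLIP had the largest rise of the 27 and TM7SF2 the largest fall, MVK had the largest rise among the genes of synthesis, and SREBF2 encodes the SREBP that chiefly drives those genes. Each is 300 bases of the RefSeq annotation of GRCh38.p14, read 5′ to 3′ along the gene, from 250 bases before an annotated start. The MVK window belongs to a start downstream of the first annotated base of the gene, and the other 3 windows to the first base. Capitals mark the CCAAT box (CCAAT on either strand, so also ATTGG), which the factor NF-Y binds beside SREBP in many sterol genes, and the letters TCACCCCAC, on either strand, of the classical sterol regulatory element.
MYLIP promoter, chr6:16128836-16129135, plus strand: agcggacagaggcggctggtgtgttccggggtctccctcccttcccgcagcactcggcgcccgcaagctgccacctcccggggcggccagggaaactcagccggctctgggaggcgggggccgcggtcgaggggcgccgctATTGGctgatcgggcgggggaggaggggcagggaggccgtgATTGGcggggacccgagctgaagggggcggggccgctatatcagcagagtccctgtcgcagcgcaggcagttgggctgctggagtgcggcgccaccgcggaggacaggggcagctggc
MVK promoter, chr12:109573544-109573843, plus strand: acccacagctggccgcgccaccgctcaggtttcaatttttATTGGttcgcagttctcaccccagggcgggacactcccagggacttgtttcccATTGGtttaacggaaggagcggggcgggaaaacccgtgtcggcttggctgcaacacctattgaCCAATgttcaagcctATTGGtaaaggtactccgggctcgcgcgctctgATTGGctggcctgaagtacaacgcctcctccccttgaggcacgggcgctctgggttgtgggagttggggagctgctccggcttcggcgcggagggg
SREBF2 promoter, chr22:41832855-41833154, plus strand: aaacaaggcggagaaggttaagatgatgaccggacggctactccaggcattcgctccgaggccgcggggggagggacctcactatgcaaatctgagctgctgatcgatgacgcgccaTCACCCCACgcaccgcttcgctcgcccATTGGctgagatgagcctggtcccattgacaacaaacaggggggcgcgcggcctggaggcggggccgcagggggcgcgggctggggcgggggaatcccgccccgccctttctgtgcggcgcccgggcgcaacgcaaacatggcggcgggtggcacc
TM7SF2 promoter, chr11:65111622-65111921, plus strand: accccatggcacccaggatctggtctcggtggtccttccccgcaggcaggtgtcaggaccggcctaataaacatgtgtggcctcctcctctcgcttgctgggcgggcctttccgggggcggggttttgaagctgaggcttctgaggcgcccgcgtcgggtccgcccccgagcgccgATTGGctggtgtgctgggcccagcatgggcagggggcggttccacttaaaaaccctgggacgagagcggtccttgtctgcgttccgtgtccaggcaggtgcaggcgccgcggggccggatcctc
The MVK window held 5 CCAAT boxes, the MYLIP window 2, and the SREBF2 and TM7SF2 windows 1 each. The tables held windows for 24 of the 27 genes, some with several starts. Of the 24, only SREBF2 held TCACCCCAC, 133 bases before the start of the gene, with a CCAAT box between it and the start; the share of all 27305 genes that hold it is 0.535%. The looser form TCACNCCAC, whose matches include that one, was likewise found in 1 of the 24, against 1.39% of all genes. The CCAAT box was in the windows of 19 of the 24, or 79.2%, against 39.7% of all genes, and the GC box GGGCGG in those of 23 of the 24, against 48.3% of all genes. Of these 19 genes with a CCAAT box, 8 rose, 4 fell and 7 were not called; with 45.4% of all genes higher and 27.1% lower, that count shows nothing particular to the motif. These are matches of letters, not measured binding.

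In early synthesis the rise was largest for MVK, mevalonate kinase. MVK read 5.88, 5.81 and 5.93 on the CSF3 arrays, against 5.37, 5.17 and 5.37 on the Ctrl arrays, a change of 0.57 ± 0.07 (SE), or 1.48-fold, with a limma adjusted p of 0.000451. Every CSF3 array lay above every Ctrl array. The second, dimmer probe set of MVK showed no such difference, with a change of -0.02 ± 0.08. IDI1, the isomerase that supplies both building blocks of the isoprenoid chain, read 6.46, 6.34 and 6.49 on the CSF3 arrays, against 6.03, 6.10 and 6.06 on the Ctrl arrays (0.37 ± 0.06, limma adjusted p = 0.00136). The groups did not overlap here either, and again the other probe set moved little, by 0.02 ± 0.06.

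The first enzymes of the route rose by less. ACAT2, the thiolase that joins acetyl-CoA units, read 7.21, 7.20 and 7.05 on the CSF3 arrays, against 6.94, 6.95 and 6.94 on the Ctrl arrays (0.21 ± 0.06, limma adjusted p = 0.0167). It was the one gene of early synthesis with more than 1 probe set whose probe sets were all called higher, with changes of 0.18 to 0.21 on its 3 probe sets. HMGCS1, the synthase of the next step and a textbook SREBP target, read 5.10, 5.27 and 5.30 on the CSF3 arrays, against 5.07, 4.91 and 4.95 on the Ctrl arrays (0.25 ± 0.08, limma adjusted p = 0.0202). Its lowest CSF3 array stood only just above the highest Ctrl array. MVD, the decarboxylase that makes isopentenyl diphosphate, read 5.95, 5.81 and 5.86 on the CSF3 arrays, against 5.73, 5.51 and 5.67 on the Ctrl arrays (0.24 ± 0.07, limma adjusted p = 0.0212). For ACAT2 and MVD, too, the lowest CSF3 array was above the highest Ctrl array. Each of these 3 calls was lost when certain single arrays were left out. That of ACAT2 was lost without Ctrl replicate 1 or 3 (change 0.21 each). That of HMGCS1 was lost without CSF3 replicate 2 or 3 (0.22 and 0.21) or Ctrl replicate 2 or 3 (0.21 and 0.23). That of MVD was lost without CSF3 replicate 1 (0.20) or Ctrl replicate 2 (0.18). The calls of HMGCS1 and MVD were also lost without moderated variances, and the second probe set of HMGCS1 (0.28 ± 0.12) was not called.

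The remaining early genes were not called on their brightest probe sets. FDPS, farnesyl diphosphate synthase, changed by -0.02 (95% confidence interval -0.16 to 0.11), PMVK, phosphomevalonate kinase, by -0.12 (-0.35 to 0.11) and GGPS1, which makes the geranylgeranyl chain for protein prenylation, by -0.17 (-0.35 to 0.01). A rise as large as that of MVK lies outside all of these intervals. FDPS was called higher after quantile normalization (0.22 ± 0.05). PMVK and GGPS1 were called lower when all their probe sets were averaged (-0.27 and -0.28), and 1 dimmer probe set of each was called lower alone (-0.41 and -0.56). GGPS1 was also called lower with trend and robust moderation (-0.17), and without CSF3 replicate 1 (-0.23).

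Late synthesis split, with MSMO1, NSDHL and EBP higher. MSMO1, the methylsterol monooxygenase, read 8.31, 8.18 and 8.25 on the CSF3 arrays, against 7.77, 7.83 and 7.82 on the Ctrl arrays, a 1.36-fold difference (0.44 ± 0.06, limma adjusted p = 0.000454). NSDHL, the dehydrogenase that acts with it, read 6.71, 6.64 and 6.68 on the CSF3 arrays, against 6.48, 6.47 and 6.42 on the Ctrl arrays (0.22 ± 0.05, limma adjusted p = 0.00601). EBP, the sterol isomerase that follows them, read 7.24, 7.22 and 7.23 on the CSF3 arrays, against 6.91, 6.92 and 6.92 on the Ctrl arrays (0.31 ± 0.05, limma adjusted p = 0.000953). All 3 genes had groups that did not overlap, and their calls were made under each other scaling, test and left-out array that was tried. Single probe sets were less uniform: the other 3 of MSMO1 changed by 0.17 (not called), -0.22 and 0.78, and the other one of EBP by 0.05 (not called). HSD17B7, the ketosteroid reductase of the demethylation steps in which MSMO1 and NSDHL act, was dim and changed by -0.01 (95% confidence interval -0.30 to 0.28).

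TM7SF2, a sterol reductase of the same part of the pathway, fell the most of the 27 genes. It read 6.30, 6.48 and 6.35 on the CSF3 arrays, against 7.17, 7.19 and 7.17 on the Ctrl arrays (-0.80 ± 0.06, limma adjusted p = 4.96e-05). The groups lay well apart, and 4 of its 5 probe sets were called lower, with changes of -0.64 to -0.80. The dimmest of the 5 was called higher, with a change of 0.30 ± 0.11. The TM7SF2 promoter printed above has a CCAAT box, as do the windows of 39.7% of all genes. Whether the motif goes with a change was not tested.

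SQLE, squalene epoxidase, a rate-limiting enzyme of late synthesis, had no settled direction. Its brightest probe set read 7.33, 7.21 and 7.33 on the CSF3 arrays, against 7.70, 7.67 and 7.62 on the Ctrl arrays (-0.37 ± 0.06, limma adjusted p = 0.00102). The groups did not overlap. Another of its 4 probe sets averaged 7.08 on the CSF3 arrays and 6.19 on the Ctrl arrays, a change of 0.89 ± 0.08. The rest changed by -0.28 ± 0.10, called lower, and by -0.05 ± 0.07, not called. The changes of -0.37 and 0.89 are both larger than their errors and have opposite signs, and averaging the 4 probe sets gave 0.05, which was not called. DHCR7, the reductase that ends the pathway, read 5.41, 5.22 and 5.25 on the CSF3 arrays, against 5.58, 5.47 and 5.55 on the Ctrl arrays (-0.24 ± 0.07, limma adjusted p = 0.0166). The groups did not overlap, but the call was lost without Ctrl replicate 1 (-0.22) or 3 (-0.23), and after quantile normalization the change was 0.00.

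LSS, lanosterol synthase, and SC5D, a sterol desaturase, did not pass the test on their brightest probe sets. LSS changed by -0.04 (95% confidence interval -0.20 to 0.11) and SC5D by -0.11 (-0.26 to 0.03), though no CSF3 array of SC5D reached the lowest Ctrl array. Their dimmer probe sets gave another reading: the other 3 probe sets of SC5D were all called lower, with changes of -0.24 to -0.59, and 1 of LSS changed by -0.93 ± 0.14, which was called. LSS was called higher on its brightest probe set after quantile normalization (0.23) and cyclic loess (0.18), but lower with all probe sets averaged (-0.29), as SC5D was (-0.33).

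**Figure D3:**
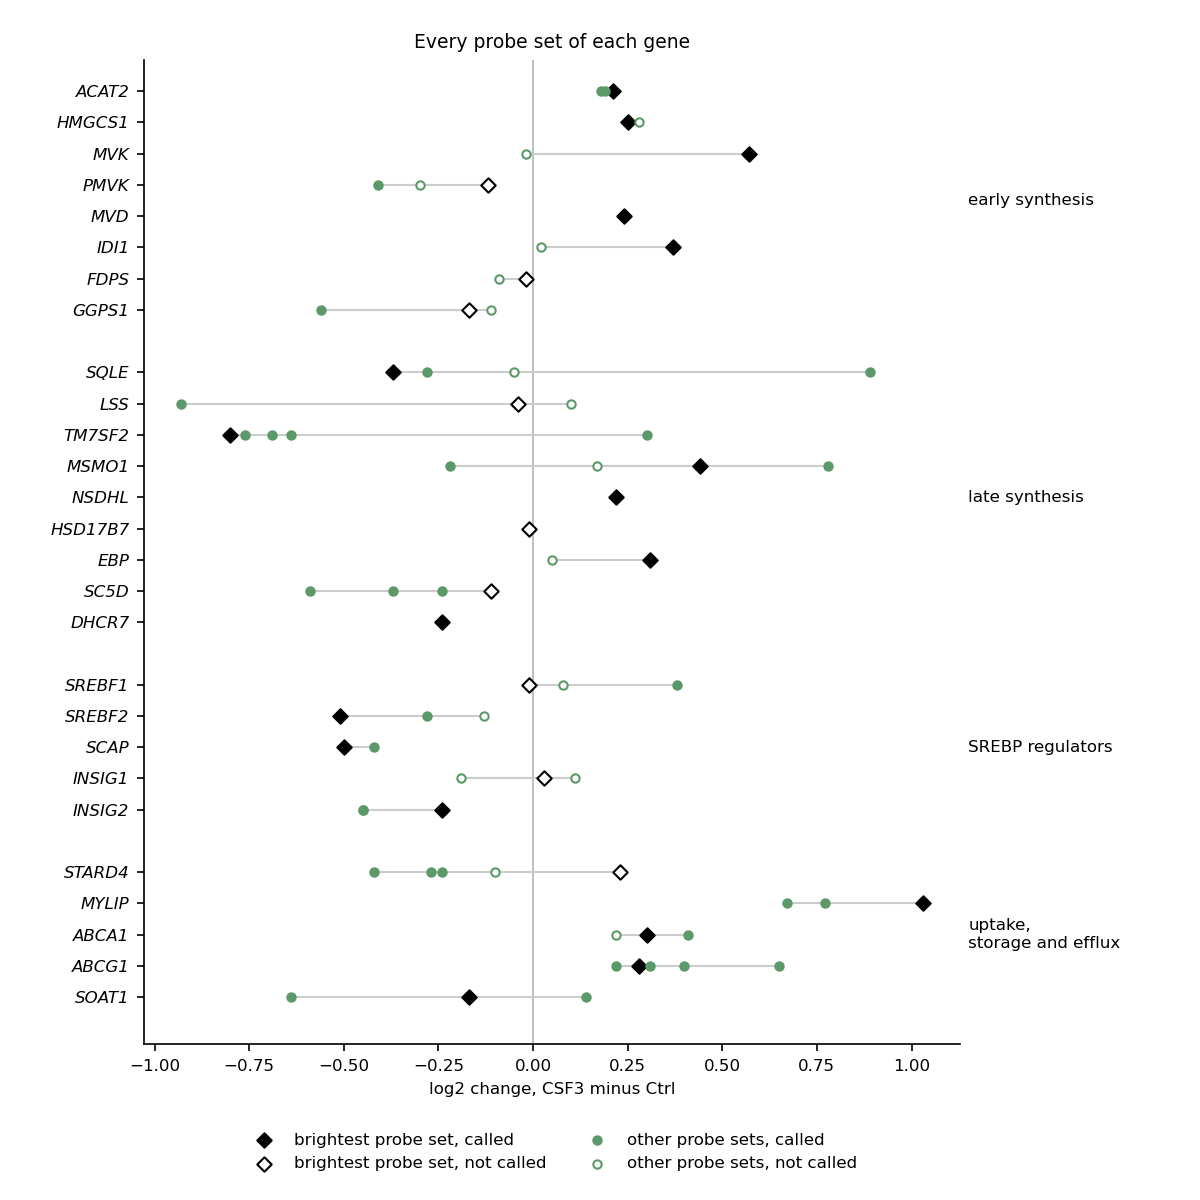
Log2 change (CSF3 minus Ctrl) of each of the 76 single-gene probe sets of the 27 genes, with the brightest probe set of a gene as a diamond and filled symbols for those that passed the limma test. SQLE, TM7SF2, MSMO1 and SOAT1 have called probe sets on both sides of 0, whereas all probe sets of MYLIP, ACAT2 and ABCG1 lie above 0 and all of SCAP and INSIG2 below it.

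In the values as deposited, the genes of the SREBP machinery were lower or not called on their brightest probe sets. SCAP, the escort of the SREBP precursors, read 6.65, 6.50 and 6.42 on the CSF3 arrays, against 7.03, 7.03 and 7.00 on the Ctrl arrays (-0.50 ± 0.07, limma adjusted p = 0.000666). Every CSF3 array lay below every Ctrl array. Both of its probe sets were called lower, with changes of -0.50 and -0.42, and the call was made under each alternative tried. SREBF2 read 6.44, 5.94 and 6.23 on the CSF3 arrays, against 6.70, 6.76 and 6.68 on the Ctrl arrays (-0.51 ± 0.12, limma adjusted p = 0.00607). All CSF3 arrays were below all Ctrl arrays, with a wide spread among the CSF3 arrays (SD 0.25, against 0.04 on the Ctrl arrays). Its other 2 probe sets changed by -0.28 and -0.13, and quantile normalization ended its call (-0.26 ± 0.11).

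The INSIG genes, whose proteins retain SCAP, differed. INSIG2 read 5.83, 5.66 and 5.69 on the CSF3 arrays, against 5.96, 5.97 and 5.95 on the Ctrl arrays (-0.24 ± 0.06, limma adjusted p = 0.0107). The groups did not overlap, and all 3 of its probe sets were called lower, but after quantile normalization its change was 0.03. INSIG1, which is itself a strong SREBP target, changed by 0.03 (95% confidence interval -0.12 to 0.19) and was called higher after quantile normalization (0.28 ± 0.06). SREBF1, which encodes the SREBP that favours fatty acid genes, changed by -0.01 (-0.12 to 0.10) and likewise was called higher after quantile normalization (0.26 ± 0.04). In the deposited values SREBF1 was also called higher on 1 dimmer probe set (0.38 ± 0.13) and with all its probe sets averaged (0.15). Between these readings, neither gene has a settled call.

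MYLIP rose the most of the 27 genes. It read 7.12, 7.00 and 6.93 on the CSF3 arrays, against 5.89, 6.09 and 5.98 on the Ctrl arrays, a 2.04-fold difference (1.03 ± 0.08, limma adjusted p = 4.1e-05). The groups lay far apart relative to their spread (SD 0.10 in each), and all 3 probe sets were called higher, by 0.67 to 1.03. Its call was made under each alternative tried. ABCA1 and ABCG1, the exporters that LXR also controls, were dim, so no fold is given for them. ABCA1 read 2.86, 2.56 and 2.44 on the CSF3 arrays, against 2.43, 2.23 and 2.29 on the Ctrl arrays (0.30 ± 0.11, limma adjusted p = 0.0438). ABCG1 read 3.41, 3.15 and 3.45 on the CSF3 arrays, against 2.98, 3.13 and 3.06 on the Ctrl arrays (0.28 ± 0.09, limma adjusted p = 0.0253). For both genes the lowest CSF3 array was only just above the highest Ctrl array.

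Neither exporter kept its call after quantile normalization, where the changes were 0.09 for ABCA1 and 0.16 for ABCG1. The ABCA1 call was also lost without CSF3 replicate 1 (0.18) or 2 (0.34) or Ctrl replicate 2 (0.26) or 3 (0.29), and the ABCG1 call without CSF3 replicate 1 (0.24) or 3 (0.22) or Ctrl replicate 1 (0.24) or 3 (0.28). SOAT1, which esterifies cholesterol for storage, read 5.24, 5.26 and 5.30 on the CSF3 arrays, against 5.38, 5.46 and 5.47 on the Ctrl arrays (-0.17 ± 0.05, limma adjusted p = 0.0232). The groups did not overlap, but its call was lost without Ctrl replicate 2 or 3 (-0.15 each), and its other 2 probe sets were called in opposite directions, with changes of 0.14 and -0.64. STARD4, a soluble sterol carrier, changed by 0.23 ± 0.10 when read from the brightest of its probe sets (limma adjusted p = 0.0785). It was called higher without CSF3 replicate 1 (0.32) or Ctrl replicate 1 (0.30), and after quantile normalization (0.39). Its other 4 probe sets had changes of -0.10 to -0.42, 3 of them called lower, and the average of all was called lower (-0.16), so STARD4 has no settled direction.

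Genes next to the pathway were read from 3 further lists. For comparison, 45.4% of all genes rose and 27.1% fell, or 37.6% and 38.5% with the 30% dimmest left out. After quantile normalization 39.8% of all genes rose and 19.7% fell. The median change of the brighter genes as a whole was -0.13. Differences between these lists and all genes were not tested. Of the 13 genes of fatty acid synthesis and its SREBP control, 5 rose and 6 fell, with a median of -0.17; after quantile normalization 2 rose and 5 fell, with a median of 0.00. ACACA, acetyl-CoA carboxylase, averaged 6.02 ± 0.08 on the CSF3 arrays and 6.89 ± 0.04 on the Ctrl arrays (SD, n = 3 each; change -0.86 ± 0.06 SE, limma adjusted p = 3.49e-05). LPIN1, a phosphatidate phosphatase, fell by 0.71 on the log2 scale and the elongase gene ELOVL6 by 0.88 (limma adjusted p = 5.31e-05 and 0.000249). These 3 were also called lower after quantile normalization.

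Of the 8 measured genes of SREBP processing and sterol-regulated degradation, 1 rose and 6 fell, with a median of -0.50; after quantile normalization 2 rose and 4 fell, with a median of -0.29. MBTPS2, one of the Golgi proteases that free SREBP, averaged 5.78 ± 0.16 on the CSF3 arrays and 6.80 ± 0.03 on the Ctrl arrays (SD, n = 3 each; change -1.02 ± 0.08 SE, limma adjusted p = 6.68e-05), and the change was -0.50 when its 2 probe sets were averaged. ERLIN2, a membrane protein that takes part in the removal of sterol pathway proteins, fell by 0.98 on the log2 scale (limma adjusted p = 2.11e-05), or by 0.20 when its 10 probe sets were averaged. SEC24A, a coat protein of the vesicles that leave the endoplasmic reticulum, rose by 1.05 ± 0.08 (limma adjusted p = 4.81e-05), or by 0.19 when its 4 probe sets were averaged. Of the 11 measured genes that use isoprenoids, 2 rose and 9 fell, with a median of -0.44; after quantile normalization 2 rose and 6 fell, with a median of -0.19. NUS1, a subunit of the enzyme that makes dolichol chains, fell by 1.07 on the log2 scale, and FNTA and PGGT1B, subunits of protein prenyltransferases, fell by 0.70 and 0.62 (limma adjusted p = 4.59e-05, 0.000135 and 0.000221), PGGT1B by 0.28 when its 2 probe sets were averaged.

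**Figure D4:**
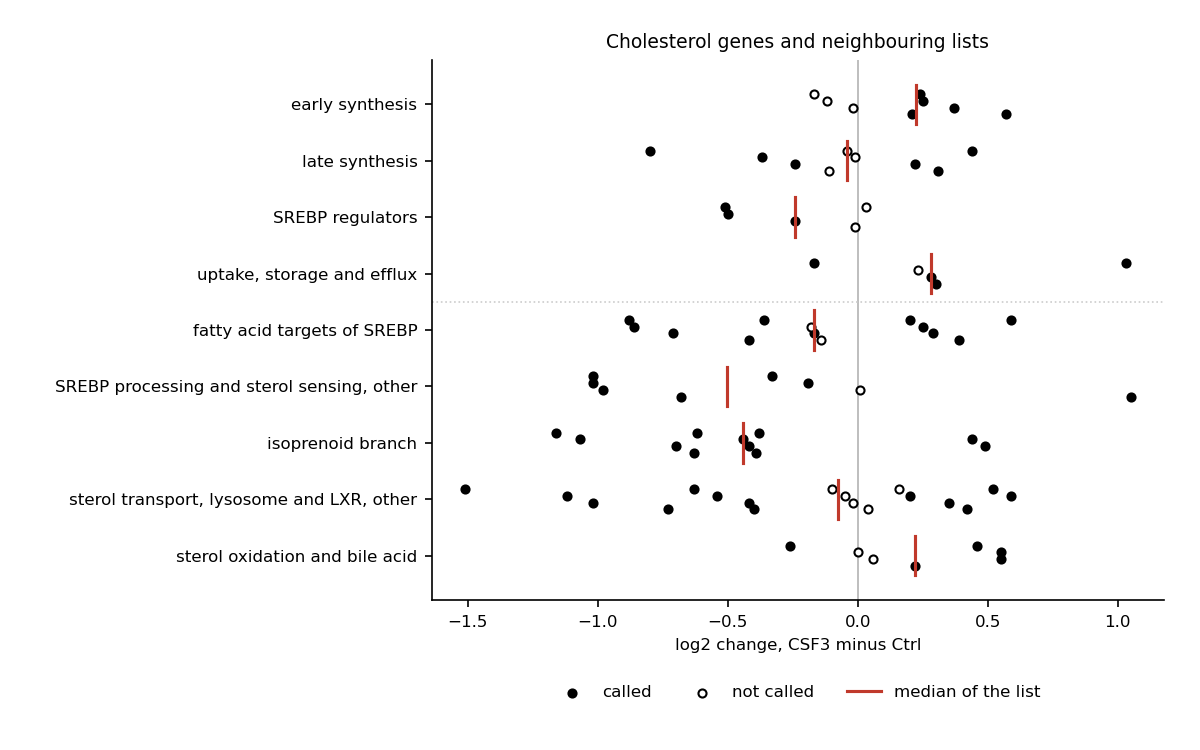
Log2 change (CSF3 minus Ctrl) of each measured gene in the 4 groups of cholesterol genes, above the dotted line, and in 5 neighbouring lists below it, with the median of each list in red and filled points for genes that passed the limma test. Early synthesis has a median of 0.22, and the medians of SREBP processing and of the isoprenoid branch lie at -0.50 and -0.44, with 0.16 for all genes. After quantile normalization, not drawn here, these medians were 0.45, -0.29 and -0.19, with 0.13 for all genes. The differences were not tested.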

How the data were processed

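Biotin-labelled total RNA of 3 CSF3 and 3 Ctrl samples was read on Affymetrix arrays, per the labels. The authors deposited values for 49395 probe sets on each array, taken here as log2 signals because of their range; their log base, background correction, summarisation and normalization are not given in the sources. Another base would change every fold but no test. There are no detection calls, and the number of arrays limits the precision. The 44988 probe sets with 1 gene in the platform annotation were used; 1832 with several genes and 2473 with none were left out. The brightest probe set stood for its gene. Probe sets can read related transcripts as well.

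CSF3 minus Ctrl was fitted over all 18132 genes with lmFit and eBayes (limma 3.58.1, R 4.3.3), with Benjamini-Hochberg adjustment, no filter and no covariates; the fit was tested on simulated data. Genes and lists were chosen with earlier results of these data known. All 27 measured cholesterol genes are named, and of each other list the 3 genes with the smallest p, except where a choice after seeing values is stated. The alternatives were quantile and cyclic loess normalization, array medians subtracted, the 30% dimmest genes left out, all probe sets averaged or taken singly, trend and robust moderation, array weights, a replicate block, no moderation, and each array left out. Promoter windows came from RefSeq (GRCh38.p14).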

Additional observations from a re-analysis of the deposited data

How the results depend on the processing

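Scaling and the choice of probe set both moved the cholesterol genes, whereas subtracting array medians changed none of their calls. The count of genes called lower was 3 after quantile normalization, 3 after cyclic loess and 11 with all probe sets averaged, against 7 as deposited. The count called higher was 7 without moderated variances, against 11, and 7 to 10 with each array left out, the lowest without Ctrl replicate 3. With the 30% dimmest genes left out, 4767 of the remaining 12692 genes (37.6%) were called higher, against 8227 of all 18132 (45.4%). List medians were 0.45 (quantile) and 0.42 (loess) for early synthesis, 0.12 and 0.12 for late synthesis, 0.03 and -0.01 for the regulators, and 0.16 and 0.09 for uptake, storage and efflux.

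Signs turned both for genes near 0 and, on single probe sets, for genes with clear changes. After quantile normalization the changes were 0.14 for PMVK, 0.22 for FDPS, 0.09 for GGPS1, 0.23 for LSS, 0.12 for SC5D, 0.00 for DHCR7, 0.26 for SREBF1, 0.03 for INSIG2 and 0.07 for SOAT1. After cyclic loess they were 0.09 for PMVK, 0.21 for FDPS, 0.07 for GGPS1, 0.18 for LSS, 0.12 for SC5D, 0.22 for SREBF1 and 0.03 for SOAT1. With all probe sets averaged they were 0.05 for SQLE, 0.15 for SREBF1, -0.02 for INSIG1 and -0.16 for STARD4. Single dimmer probe sets gave -0.02 for MVK, 0.89 for SQLE, 0.10 for LSS, 0.30 for TM7SF2, -0.22 for MSMO1, 0.38 and 0.08 for SREBF1, -0.19 for INSIG1, -0.42, -0.27, -0.24 and -0.10 for STARD4 and 0.14 for SOAT1. With 1 array left out, changes ranged from -0.05 to 0.02 for FDPS, from -0.08 to 0.02 for LSS, from -0.12 to 0.11 for HSD17B7 and from -0.02 to 0.09 for INSIG1. The cause of these shifts was not tested.

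The replicate numbers are shared by the labels of both groups, which do not say whether they pair the arrays. The correlation of the deviations of same-numbered arrays was 0.027 to 0.038. That shows little shared deviation but cannot tell whether the samples were paired. With the replicate number as a block, 8086 of all genes were called higher and 4782 lower, and 11 and 8 of the cholesterol genes, the added one being GGPS1. Of the 18 calls as deposited, 8 were made in the same direction under all settings on all arrays and with each array left out, single probe sets aside: MVK, IDI1, MSMO1, NSDHL, EBP and MYLIP higher, TM7SF2 and SCAP lower. The same count was not made over all genes, of which 45.4% were called higher and 27.1% lower as deposited. These 8 calls therefore say nothing particular about cholesterol genes.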

Other observations

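Genes that carry or store sterols outside the 30 went both ways, as did all genes, of which 45.4% rose and 27.1% fell. Of the 18 measured, 5 rose and 8 fell, with a median change of -0.08; after quantile normalization 6 rose and 6 fell, with a median of 0.05. GRAMD1C, one of the proteins that carry cholesterol from the plasma membrane to the endoplasmic reticulum, read 3.52, 3.59 and 3.58 on the CSF3 arrays, against 5.04, 5.04 and 5.14 on the Ctrl arrays (-1.51 ± 0.05, limma adjusted p = 8.45e-06). LIPA, the lysosomal acid lipase that frees cholesterol from lipoproteins, read 7.35, 7.30 and 7.30 on the CSF3 arrays, against 8.37, 8.34 and 8.29 on the Ctrl arrays (-1.02 ± 0.05, limma adjusted p = 1.27e-05). OSBP, an oxysterol-binding protein that exchanges lipids between the endoplasmic reticulum and the Golgi, fell by 0.73 on the log2 scale (limma adjusted p = 8.42e-05). Each of these 3 genes was also called lower after quantile normalization and with all its probe sets averaged.

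Of the 7 measured genes of sterol oxidation, bile acid synthesis and sterol reduction outside the 30, 4 rose and 1 fell, with a median of 0.22, or 0.24 after quantile normalization. The shares of all genes that rose and fell were 45.4% and 27.1%, and the difference was not tested. CYP27A1, which makes an oxysterol that activates LXR, read 5.74, 5.82 and 5.95 on the CSF3 arrays, against 5.21, 5.35 and 5.27 on the Ctrl arrays (0.55 ± 0.07, limma adjusted p = 0.000446). NR1H3, which encodes an LXR receptor, was dim and called lower (-0.54 ± 0.11, limma adjusted p = 0.00331), also after quantile normalization (-0.69). It is named here with its values known. Whether LXR activity differed between the groups was not tested. CH25H and CYP7B1, which make and further oxidise oxysterols, were dim on all 6 arrays, with changes of 0.46 ± 0.07 and 0.55 ± 0.12 (limma adjusted p = 0.00114 and 0.00421). Among the dimmer genes of the arrays the median change was 0.31.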
